A study of Mus musculus with 28 samples.

Results

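The genes described here are 39 mouse genes that are classically induced by interferon or that serve antigen presentation on class I molecules of the major histocompatibility complex (MHC). They were chosen by symbol from a raw count table of 54429 genes, of which 28192 had at least 1 count. By role they are 4 sensors of foreign RNA or DNA, 4 transcription factors, 6 regulators that act through ubiquitin-like modification or ADP-ribosylation, 11 effectors of the IFIT, Mx and OAS families, 4 membrane or nucleotide-modifying effectors, 6 other interferon-induced genes and 4 antigen processing genes. The study asked how low oxygen bears on the capacity of cranial neural crest cells to differentiate. It used O9-1, an established line of mouse cranial neural crest cells, the embryonic cells from which most of the bones, cartilage and connective tissue of the face derive. Polyadenylated RNA was sequenced from 28 libraries in 8 groups, with 4 libraries per group at 21% O2 (normoxia) and 3 per group at 0.5% O2 (hypoxia). Proliferating cells were kept in medium conditioned by STO feeder cells with 15% fetal calf serum (FCS), 25 ng/ml bFGF and 5 ng/ml LIF. Osteoblast cultures received 10% FCS, beta-glycerophosphate, 0.1 µM dexamethasone and 100 ng/ml BMP-2 for 10 days. Chondrocyte cultures spent 3 days in the osteoblast medium and then 7 days as micromasses on matrigel with 5% FCS, insulin-transferrin-selenium, 0.1 µM dexamethasone, 10 ng/ml TGF-beta3 and 50 ng/ml BMP-2. Smooth muscle cultures were held in DMEM with 10% FCS for 3 days. Medium, matrix and duration differ together with the lineage, so their parts in a lineage difference cannot be told apart, and all groups come from the same line. No group was described as treated with interferon or infected.

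Interferons are secreted proteins that cells make when sensors such as RIG-I (Ddx58) and MDA5 (Ifih1) detect foreign nucleic acid. Type I interferon binds the Ifnar1 and Ifnar2 receptor chains, the kinases Jak1 and Tyk2 then phosphorylate STAT2, which joins IRF9 in a complex that binds the interferon-stimulated response element in front of its target genes. Type II interferon acts through a different, palindromic element, and it is the classical inducer of the immunoproteasome, the TAP transporter and MHC class I. Many of these genes are also read at a low, tonic level in cells that no interferon was added to.

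Library depth ran from 19869271 to 64693346 counts. Levels are given as counts per 1000000 counts (CPM) after TMM scaling over all 28 libraries, each fold change as a log2 difference from edgeR's quasi-likelihood test, and a gene is called where its p-value, adjusted by the Benjamini-Hochberg method over all genes tested, is below 0.05. The smooth muscle libraries at 0.5% O2 stood apart. Mitochondrial ribosomal RNA took 11.6 to 13.3% of their counts and at most 0.0889% in any other library, and their TMM factors averaged 0.533, against group means of 0.910 to 1.25 elsewhere. The 4 smooth muscle markers listed (Acta2, Tagln, Cnn1, Myh11) summed to 27.8 to 40.9 CPM in them, against 3432 to 3844 CPM in smooth muscle cultures at 21% O2 and 36.6 to 43.8 CPM in proliferating cells at 0.5% O2, so these libraries lack the markers of their label, and they are called by that label only. Counts of called genes that rest on them are given under both scalings. Their CPM levels are given with TMM, and by library size alone they are 0.518 to 0.545 times as high. Osteoblast markers summed to 63.5 to 148 CPM in osteoblast cultures at 21% O2, against 57.2 to 64.8 CPM in proliferating cells, and to 368 to 398 CPM at 0.5% O2, below the 1053 to 2533 and 784 to 1271 CPM of the chondrocyte cultures at 21% and 0.5% O2. Smooth muscle markers in osteoblast cultures at 21% O2 (3103 to 4749 CPM) overlapped those in smooth muscle cultures, and their osteoblast markers overlapped those of proliferating cells, so these lists do not bear out the osteoblast label at 21% O2. The fourth osteoblast library at 21% O2 stood apart too, with chondrocyte markers at 1361 CPM against 179 to 194 CPM in the other 3, osteoblast markers at 148 against 63.5 to 73.7 CPM and smooth muscle markers at 4749 against 3103 to 3253 CPM. Chondrocyte markers summed to 2831 to 8328 and 850 to 1272 CPM in the chondrocyte cultures at 21% and 0.5% O2. Smooth muscle markers summed to 1925 to 2290 and 1698 to 2088 CPM in the same cultures. In osteoblast cultures at 0.5% O2, smooth muscle markers were at 1723 to 2031 CPM and chondrocyte markers at 587 to 634 CPM. Both lay above the osteoblast markers of those cultures. Nothing states whether the libraries of a group came from separate cultures, so the p-values measure the spread between these libraries, which may be technical. In bulk libraries of this kind, fewer cells of a type and less RNA per cell cannot be told apart.

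Promoter stretches are shown first, for 7 members the results turn on that hold the core of the interferon-stimulated response element well before their start. Windows of 300 bases (250 before and 50 after the start) were in the RefSeq table (build GRCm38.p6) for 29 of the 39 genes. The core of the interferon-stimulated response element, GAAANNGAAA on either strand, was present in a window of 13 of these 29 genes (44.8%) and of 3.99% of all 27025 genes in that table, a gene counting where any of its windows holds it. The windows of Irf7, Tap1 and Psmb8, which are given in every comparison, held no match. A core of the palindromic element, TTCNNNGAA, was present for 7 of the 29 genes (24.1%) and for 9.55% of all genes, and is not marked. The stretches below run 5′ to 3′ along the strand of the gene, with the GAAANNGAAA matches in capitals, written as TTTCNNTTTC where the match is on the other strand. Isg15 (chr4:156200850-156200921, minus strand) held 3 overlapping matches and Bst2 (chr8:71537562-71537627, minus strand) held 2 overlapping ones. Ifit1 (chr19:34640760-34640838, plus strand) and Ifit3 (chr19:34583348-34583441, plus strand) held 2 separate matches each. The stretches of Stat2 (chr10:128270251-128270310, plus strand), of B2m (chr2:122147523-122147582, plus strand) and Oas3 (chr5:120777700-120777759, minus strand) held 1 each.
Isg15: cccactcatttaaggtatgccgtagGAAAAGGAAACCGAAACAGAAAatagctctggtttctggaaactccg
Bst2: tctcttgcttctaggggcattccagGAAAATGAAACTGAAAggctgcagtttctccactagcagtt
Ifit1: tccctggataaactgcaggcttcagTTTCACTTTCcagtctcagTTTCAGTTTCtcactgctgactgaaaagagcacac
Ifit3: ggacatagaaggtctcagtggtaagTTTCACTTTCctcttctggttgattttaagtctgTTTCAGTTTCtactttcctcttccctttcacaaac
Stat2: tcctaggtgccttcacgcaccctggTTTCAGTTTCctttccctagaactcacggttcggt
B2m: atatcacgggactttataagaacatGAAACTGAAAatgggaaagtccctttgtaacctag
Oas3: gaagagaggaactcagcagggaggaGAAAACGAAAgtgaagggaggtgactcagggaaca
Ifitm3 held 2 matches after its start, Oas1a 2 overlapping ones just before it, Ddx58 and Ifih1 1 each after it and Rsad2 1 before it, and these are not shown. A stretch before Ifit3b (chr19:34607744-34607837, plus strand) is the same as that of Ifit3, letter for letter. The 2 genes also share transcript sequence: 31.7% of the 100-base stretches of Ifit3 and 27.4% of those of Ifit3b occur in the other gene, as do 40.9% of those of Oas1a in its copy Oas1g, so counts of these 3 genes may be split between copies and are uncertain. By position in the GENCODE annotation of GRCm38, Ifit2, Ifit3, Ifit3b and Ifit1 lie within chr19:34550694-34650009, Psmb9, Tap1 and Psmb8 within the MHC at chr17:34181987-34201454, and Rsad2 and Cmpk2 within chr12:26442746-26479837. Whether strand was used in counting is not stated, so Dtx3l and Parp9 (458 shared exon bases on opposite strands) and Psmb9 and Tap1 (212 bases) may share reads, as may Psmb8 with an antisense transcript (498 bases) and Ifi35 with another (290 bases).

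None of the 6 interferon genes listed was detected. Ifnb1, Ifna2, Ifna4, Ifng, Ifnl2 and Ifnl3 had 0 counts in all 28 libraries, and Ifnlr1, the receptor chain for type III interferon, stayed at or below a group mean of 0.415 CPM. The receptor chains and kinases of the type I and II pathways were present throughout. Group means of Ifnar1 ran from 41.3 to 138 CPM, of Ifngr2 from 36.7 to 73.8 CPM and of Jak1 from 137 to 272 CPM.

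Summed over the 39 genes, levels were highest in proliferating cells at 0.5% O2 (1411 to 1429 CPM) and lowest in chondrocyte cultures (353 to 389 CPM at 0.5% and 383 to 438 CPM at 21% O2, ranges that overlap). B2m, the light chain of MHC class I, was part of that sum in every group. Without it the range was 1019 to 1024 CPM in proliferating cells at 0.5% O2, 492 to 708 at 21% O2, 544 to 580 in smooth muscle cultures at 21% O2, 271 to 354 in osteoblast cultures at 21% O2, and 168 to 214 in chondrocyte cultures at 21% O2. For the differentiated cultures at 0.5% O2 it was 277 to 282 CPM in osteoblast, 177 to 195 in chondrocyte and 537 to 570 in smooth muscle cultures, the last at 287 to 309 CPM by library size. Of the 39 genes, 23 had their highest group mean in proliferating cells at 0.5% O2, 9 in smooth muscle cultures at 21% O2, 5 in smooth muscle cultures at 0.5% O2 and 1 each in proliferating cells and osteoblast cultures at 21% O2. The lowest group mean was in chondrocyte cultures at 0.5% O2 for 22 genes, in smooth muscle cultures at 0.5% O2 for 10, in chondrocyte cultures at 21% O2 for 5 and in osteoblast cultures at 0.5% O2 for 2. Scaled by library size alone, the highest means fell on proliferating cells at 0.5% O2 for 23 genes, on smooth muscle cultures at 21% O2 for 12, and on smooth muscle cultures at 0.5% O2 for 2, and the lowest on each of the chondrocyte and smooth muscle cultures at 0.5% O2 for 17. Per kilobase of exon, B2m was the most abundant member in proliferating cells at 0.5% O2 (463 CPM per kb), followed by Ifitm3 (249), Bst2 (166) and Ifi27 (62.7). At the other end, 8 members had 0 counts in all 3 chondrocyte libraries at 0.5% O2 and 6 in all 3 osteoblast libraries at 0.5% O2.

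**Figure D1:**
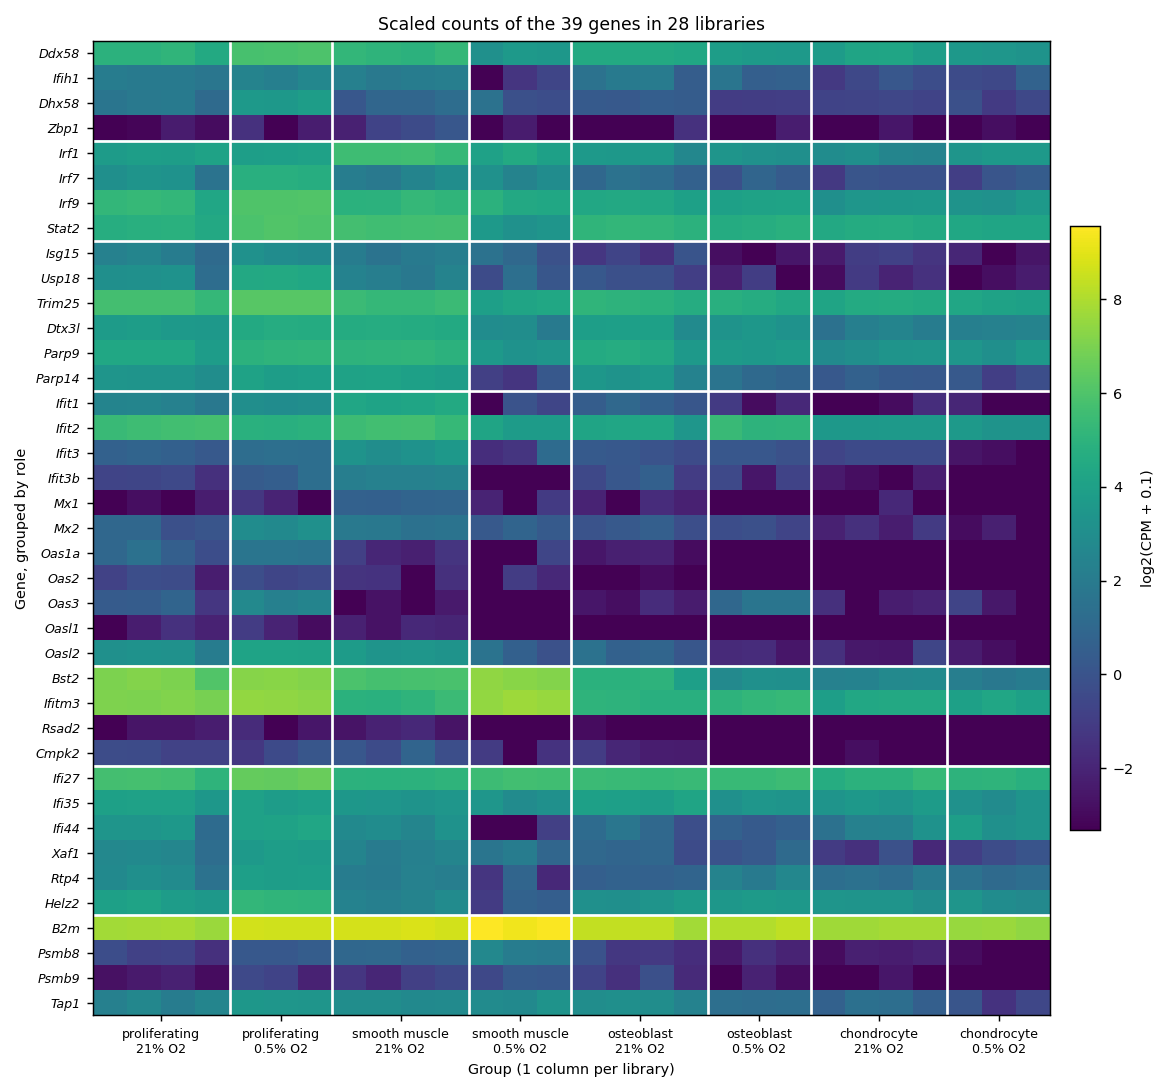
Colour map of the 39 genes (vertical axis, grouped by role with white lines) in the 28 libraries (horizontal axis, 1 column per library, grouped by culture and oxygen level), coloured by log2(CPM + 0.1). Proliferating cells at 0.5% O2 are the brightest for 23 of the 39 genes, the chondrocyte cultures are dark in most, and Bst2, Ifitm3 and B2m stay bright in the smooth muscle cultures at 0.5% O2 while Ifit3b, Oas3 and Ifi44 are dark there.

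Among the sensors, Ddx58 was the most abundant. Its group means were 30.0 ± 5.30 CPM (SD, n = 4) in proliferating cells at 21% O2 and 59.6 ± 3.30 CPM (SD, n = 3) at 0.5% O2, and between 10.7 and 34.7 CPM in the differentiated groups. Dhx58, which encodes the RIG-I relative LGP2, was at 12.4, 11.5 and 14.4 CPM in proliferating cells at 0.5% O2 and at most 3.21 CPM as a mean in any other group. Those 3 libraries lay above the 25 others. Ifih1 had group means of 0.276 to 5.42 CPM, and Zbp1, a sensor of left-handed nucleic acid, had 110 counts over all 28 libraries.

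Irf7, the factor that amplifies interferon gene transcription, was at 8.56, 9.98, 9.23 and 2.95 CPM in the 4 proliferating libraries at 21% O2, 0.342, 0.964, 0.844 and 0.837 in chondrocyte, 1.87, 2.80, 2.33 and 1.49 in osteoblast and 4.29, 3.54, 5.56 and 7.95 in smooth muscle cultures. At 0.5% O2 its values were 28.1, 27.8 and 26.4 CPM in proliferating cells, 0.421, 0.943 and 1.26 in chondrocyte, 0.778, 1.73 and 1.18 in osteoblast and 9.02, 5.35 and 7.70 in smooth muscle cultures. The 3 proliferating libraries at 0.5% O2 were each above the 25 others, and at 21% O2 the fourth proliferating library lay far below the other 3 and below every smooth muscle library. Stat2 read 25.9, 27.6, 29.3 and 22.0 CPM in proliferating, 21.7, 24.0, 25.1 and 22.5 in chondrocyte, 34.9, 37.4, 35.9 and 31.3 in osteoblast and 53.1, 49.2, 50.3 and 52.9 in smooth muscle cultures at 21% O2. Under 0.5% O2 it read 59.8, 65.8 and 61.6 CPM in proliferating, 20.5, 18.7 and 19.3 in chondrocyte, 23.9, 26.1 and 29.1 in osteoblast and 11.9, 9.14 and 10.5 in smooth muscle cultures. Stat2 was at 9.14 CPM or more in all 28 libraries, and the lowest were the smooth muscle cultures at 0.5% O2. Irf9 had its highest mean in proliferating cells at 0.5% O2 (65.6 ± 0.667 CPM) and its lowest in chondrocyte cultures (10.3 and 10.6 CPM at 0.5% and 21% O2, ranges that overlap). Irf1, an early target of type II interferon, was highest in smooth muscle cultures at 21% O2 (39.6 to 48.3 CPM), with group means of at most 18.4 CPM elsewhere.

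Isg15, the ubiquitin-like protein attached to other proteins after interferon, was at 5.02, 5.64, 4.15 and 2.13 CPM in proliferating, 0.0934, 0.402, 0.457 and 0.291 in chondrocyte, 0.318, 0.519, 0.240 and 0.910 in osteoblast and 4.10, 2.91, 3.86 and 4.40 in smooth muscle cultures at 21% O2. The values at 0.5% O2 were 8.98, 7.53 and 6.86 CPM in proliferating, 0.162, 0 and 0.0663 in chondrocyte, 0.0389, 0 and 0.0713 in osteoblast and 2.79, 1.94 and 0.805 in smooth muscle cultures. No chondrocyte or osteoblast library was above 0.910 CPM, and no proliferating library was below 2.13 CPM. Usp18, which removes ISG15 and dampens receptor signalling, ranged from 20.7 to 22.4 CPM in proliferating cells at 0.5% O2 down to 0 to 0.0995 CPM in chondrocyte cultures at 0.5% O2. Trim25, a ubiquitin ligase that acts on RIG-I, had group means of 17.7 CPM or more and was highest in proliferating cells at 0.5% O2 (74.5 ± 0.420 CPM). Dtx3l and Parp9, which form a ubiquitin ligase complex, and Parp14, an ADP-ribosyltransferase, were high in smooth muscle cultures at 21% O2 (24.0, 32.8 and 16.4 CPM) and in proliferating cells at 0.5% O2 (24.0, 33.0 and 15.5 CPM).

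Ifit1, whose protein binds viral RNA that lacks the host cap methylation, was at 5.51, 5.79, 4.98 and 3.46 CPM in proliferating, 0, 0, 0.0352 and 0.218 in chondrocyte, 1.31, 1.92, 1.47 and 1.01 in osteoblast and 19.5, 17.6, 19.0 and 22.9 in smooth muscle cultures at 21% O2. With 0.5% O2 it was at 8.12, 7.53 and 8.21 CPM in proliferating, 0.162, 0 and 0 in chondrocyte, 0.350, 0.0345 and 0.178 in osteoblast and 0, 0.875 and 0.537 in smooth muscle cultures. The 4 smooth muscle libraries at 21% O2 were above every other library, while those at 0.5% O2 were at or below 0.875 CPM. Ifit3, Ifit3b and Mx1 shared that peak, with means of 9.70, 4.96 and 1.58 CPM in smooth muscle cultures at 21% O2 and at most 2.43, 1.65 and 0.168 CPM in any other group. Ifit2 was the most abundant of the family (group means of 10.6 to 48.7 CPM) and was present in all 28 libraries. The OAS enzymes, which make the oligoadenylate that activates RNase L, were highest in proliferating cells at 0.5% O2: Oas1a at 3.09, 3.17 and 2.90 CPM, Oas3 at 6.64, 4.80 and 5.45 CPM. Oas1a and Oas2 had 0 counts in all 7 chondrocyte libraries, which allows a level of up to 0.0266 CPM over the 4 libraries at 21% O2 and 0.0347 CPM over the 3 at 0.5% O2 (3 counts, counting error only). Oasl1 had 54 counts in the whole study.

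Bst2, the tetherin that holds budding virus at the cell surface, was at 129, 144, 129.5 and 67.8 CPM in proliferating, 4.98, 5.06, 6.61 and 7.17 in chondrocyte, 29.5, 29.6, 31.9 and 15.2 in osteoblast and 59.8, 54.0, 56.0 and 58.2 in smooth muscle cultures at 21% O2. Its values at 0.5% O2 were 152, 155 and 142 CPM in proliferating, 4.47, 3.42 and 4.18 in chondrocyte, 6.50, 8.84 and 8.35 in osteoblast and 172, 154 and 143 in smooth muscle cultures. With TMM, proliferating cells and the smooth muscle cultures at 0.5% O2 shared the top of the range, while by library size alone the latter were at 76.7 to 94.0 CPM and proliferating cells at 0.5% O2 at 162 to 179 CPM. The chondrocyte cultures at either oxygen level and the osteoblast cultures at 0.5% O2 lay at its bottom, the latter overlapping the chondrocyte cultures at 21% O2. Ifitm3, which blocks virus entry from endosomes, was at 134, 129.8, 139.9 and 123 CPM in proliferating, 15.0, 20.8, 21.7 and 22.0 in chondrocyte, 33.4, 31.8, 27.8 and 27.5 in osteoblast and 30.3, 29.0, 33.0 and 44.2 in smooth muscle cultures at 21% O2. At 0.5% O2 it was at 175, 172 and 160.1 CPM in proliferating, 16.1, 19.8 and 16.0 in chondrocyte, 31.6, 37.3 and 39.7 in osteoblast and 178, 208 and 194 in smooth muscle cultures. With TMM, every proliferating library and every smooth muscle library at 0.5% O2 was at or above 123 CPM, and every other library at or below 44.2 CPM. By library size the smooth muscle libraries at 0.5% O2 were at 96.8 to 108 CPM, below the 149.97 CPM of the lowest proliferating library and above the 54.7 CPM of the highest of the others. Rsad2 (viperin) and Cmpk2, neighbouring genes for antiviral nucleotide metabolism, were low throughout, with 34 and 334 counts over all libraries.

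B2m was at 219, 225, 235 and 199 CPM in proliferating, 215, 214, 226 and 224 in chondrocyte, 333, 333, 324 and 223 in osteoblast and 432, 422, 453 and 412 in smooth muscle cultures at 21% O2. At 0.5% O2 it was at 406, 391 and 397 CPM in proliferating, 193, 198 and 174 in chondrocyte, 266, 271 and 319 in osteoblast and 757, 634 and 709.8 in smooth muscle cultures. The chondrocyte and proliferating ranges of B2m at 21% O2 overlapped. Psmb8, a catalytic subunit of the immunoproteasome, was at 0.724, 0.470, 0.511 and 0.240 CPM in proliferating, 0.0311, 0.121, 0.106 and 0.146 in chondrocyte, 0.848, 0.319, 0.343 and 0.227 in osteoblast and 1.85, 1.95, 1.49 and 1.60 in smooth muscle cultures at 21% O2. The levels at 0.5% O2 were 1.05, 1.06 and 1.28 CPM in proliferating, 0.0324, 0 and 0 in chondrocyte, 0.0778, 0.242 and 0.143 in osteoblast and 6.30, 4.18 and 3.76 in smooth muscle cultures. The smooth muscle cultures at either oxygen level were the highest, above the 21 other libraries. Tap1, the subunit of the pump that moves peptides into the endoplasmic reticulum, was at 4.73, 6.14, 4.09 and 5.76 CPM in proliferating, 1.52, 2.61, 2.43 and 1.42 in chondrocyte, 7.77, 8.47, 7.99 and 5.17 in osteoblast and 7.96, 7.91, 6.86 and 7.14 in smooth muscle cultures at 21% O2. At 0.5% O2 it was at 11.1, 10.9 and 10.5 CPM in proliferating, 0.973, 0.275 and 0.564 in chondrocyte, 2.53, 2.35 and 2.39 in osteoblast and 7.33, 6.90 and 9.66 in smooth muscle cultures. The 3 proliferating libraries at 0.5% O2 were the highest for Tap1, with no other library above 9.66 CPM, and its 3 chondrocyte libraries at 0.5% O2 were the lowest, at or below 0.973 CPM.

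**Figure D2:**
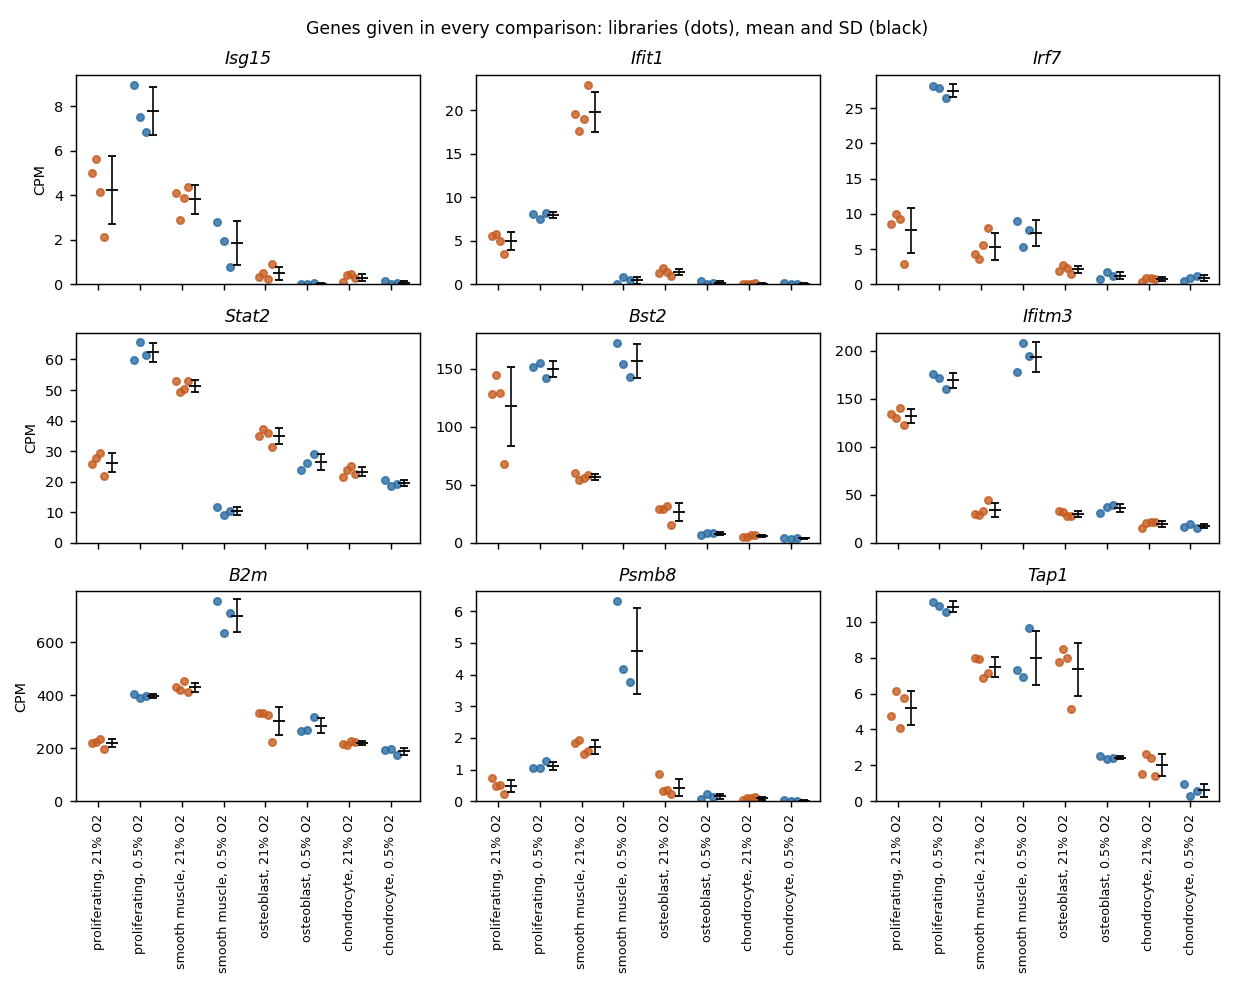
CPM (vertical axes, from 0) of 9 genes in each library (dots, orange at 21% O2 and blue at 0.5% O2) by group (horizontal axes), with mean and SD in black (n = 4 at 21% and n = 3 at 0.5% O2). Irf7 peaks in proliferating cells at 0.5% O2 (26.4 to 28.1 CPM), Ifit1 in smooth muscle cultures at 21% O2 (17.6 to 22.9 CPM), and Bst2 and Ifitm3 are low in all osteoblast and chondrocyte cultures.

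In proliferating cells, low oxygen went with higher interferon-stimulated and antigen processing transcripts. Of 34 members tested, 27 rose and 1 fell at 0.5% O2, or 82.4% called against 65.4% of all genes (33.1% higher), and the median log2 fold change was 0.92 against 0.015 over all genes. The groups did not overlap for 30 of the 34, as for 65.3% of all genes tested. All 3 tested sensors, all 6 ubiquitin-like and ADP-ribosylation regulators and all 3 tested antigen processing genes rose, as did 7 of 9 IFIT, Mx and OAS genes. The largest rises were Mx2, an interferon-induced GTPase, at 2.45 (SE 0.25, adjusted p = 1.78e-06), Oas3 at 2.31 (SE 0.34, adjusted p = 8.81e-05) and Dhx58 at 1.98 (SE 0.17, adjusted p = 2.31e-07). Irf7 followed at 1.81 (SE 0.35, adjusted p = 0.00362). Stat2 rose by 1.24 (SE 0.083, adjusted p = 1.64e-08), B2m by 0.85 (SE 0.055, adjusted p = 1.2e-08) and Tap1 by 1.05 (SE 0.14, adjusted p = 1.21e-05). The rise of Psmb8 was 1.19 (adjusted p = 0.0112) and that of Ifit1 was 0.67 (adjusted p = 0.00211). Ifitm3 rose by the small amount of 0.35 (adjusted p = 7.39e-05), and Bst2 was at 0.34 (adjusted p = 0.299). Ifit2 was the member that fell, at -0.76 (SE 0.081, adjusted p = 1.84e-06). The rise of Isg15 (0.85, SE 0.25, adjusted p = 0.0124) was lost without the first proliferating library at 0.5% O2 (adjusted p = 0.0539). The fourth proliferating library at 21% O2 was the lowest of its group for most members. Without it 29 members rose and 1 fell, with a median of 0.78, and the values were 1.54 for Irf7, 0.62 for Isg15 and 1.16 for Stat2. Without that library Bst2 was called, at 0.14 (adjusted p = 0.00987).

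The wider pathway was mostly higher as well. Of 36 further interferon-stimulated genes tested, 27 rose and 4 fell, led by Isg20, an RNA exonuclease, at 2.86 (SE 0.073, adjusted p = 1.09e-12), with Cxcl10 at -1.72 (SE 0.34, adjusted p = 0.000454) among those that fell. Of 16 further antigen processing genes, 10 rose and 2 fell, with the MHC class I heavy chain H2-K1 at 2.47 (SE 0.057, adjusted p = 4.83e-13) and the peptide trimming enzyme Erap1 at -1.42 (SE 0.11, adjusted p = 6.02e-08). All 5 tested receptor chains rose, the largest being Il10rb at 1.39 (SE 0.13, adjusted p = 3.54e-07). The 3 constitutive proteasome subunits that Psmb8 and its relatives replace all fell, Psmb5 by the most (-0.89, SE 0.066, adjusted p = 4.51e-08). Of 17 signalling genes 9 rose and 4 fell: the kinase Ikbke rose by 1.20 (SE 0.12, adjusted p = 6.41e-07), and Mb21d1, the DNA sensor cGAS, fell (-1.39, SE 0.11, adjusted p = 6.77e-08). Leukocyte markers summed to 14.2 to 15.5 CPM in these cells and to 10.1 to 12.9 CPM at 21% O2, with Itgam, Cd3e and Siglech at 0 counts in every library of the study and 5 and 4 of the 10 markers at 0 in the respective group. The part of these cells or transcripts in the rises was not tested.

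Most members that could be tested were lower in chondrocyte cultures at 21% O2. Of 31 members tested, 28 fell and none rose against proliferating cells, or 90.3% called against 74.9% of all genes (37.7% higher, 37.2% lower), and the median was -2.00 against -0.0029 over all genes. All 3 tested sensors, all 6 ubiquitin-like and ADP-ribosylation regulators, all 7 tested IFIT, Mx and OAS genes and all 3 tested membrane and nucleotide-modifying genes fell. Oas1a, with 0 counts in the chondrocyte libraries, was at least 60.9-fold lower, set against 3 counts over the group. Ifit1 fell, at -6.21 (SE 0.53, adjusted p = 5.08e-07), a value that ran from -8.33 to -5.74 as 1 library at a time was left out, the lowest without the fourth chondrocyte library, which held most of its few counts. Cmpk2, with 1 count in chondrocyte cultures, was lower by 67.7-fold (95% counting interval 11.9 to 2700.0). Oas1a and Cmpk2 entered the test only through the proliferating cells, so a fall was the only call open to them. Usp18 stood at -5.21 (SE 0.60, adjusted p = 1.91e-05), Bst2 at -4.27 (SE 0.26, adjusted p = 3.15e-07) and Isg15 at -3.76 (SE 0.42, adjusted p = 4.97e-06). Irf7 stood at -3.36 (SE 0.42, adjusted p = 2.96e-05) and Ifitm3 at -2.70 (SE 0.11, adjusted p = 1.43e-09). The fall was smaller for Tap1, at -1.35 (adjusted p = 0.000163). Stat2 was at -0.14 (adjusted p = 0.199), Ifi44 at -0.62 (adjusted p = 0.301) and B2m at 0.029 (adjusted p = 0.677), none of them called, and Psmb8 had too few counts to be tested. With library size as the scale 30 fell, and the share of higher calls over all genes moved from 50.3% to 34.7%, a shift of -0.35 in the median of all genes. Without the fourth proliferating library 33 of 34 fell. Stat2 was among them, at -0.22 (adjusted p = 0.0289). Of 35 further interferon-stimulated genes 26 fell and 3 rose, while all 5 tested receptor chains rose, led by Il10rb (1.43, adjusted p = 6.66e-07). Leukocyte markers summed to 2.69 to 3.77 CPM in chondrocyte cultures at 21% O2 and 10.1 to 12.9 CPM in proliferating cells. Their part in the falls was not tested.

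In osteoblast cultures at 21% O2, 21 members were lower and 3 higher than in proliferating cells of 33 tested, or 72.7% called against 78.7% of all genes (40.9% higher, 37.8% lower). The median was -0.68 against 0.066 over all genes, and scaling by library size gave the latter a shift of -0.15. Without the fourth osteoblast library 21 were lower and 5 higher of 34. The largest falls were those of the OAS genes Oas1a at -4.21 (SE 0.54, adjusted p = 5.27e-05) and Oas3 at -3.38 (SE 0.61, adjusted p = 0.000563) and of the regulators Usp18 at -3.25 (SE 0.46, adjusted p = 0.000117) and Isg15 at -3.09 (SE 0.44, adjusted p = 0.000106). Bst2 (-2.16, SE 0.28, adjusted p = 6.19e-05), Ifitm3 (-2.14, SE 0.082, adjusted p = 1.33e-08), Irf7 (-1.88, SE 0.37, adjusted p = 0.00101) and Ifit1 (-1.81, SE 0.24, adjusted p = 6.01e-05) fell as well. The genes that rose were Stat2 at 0.40 (SE 0.097, adjusted p = 0.00362), B2m at 0.45 (SE 0.12, adjusted p = 0.00724) and Tap1 at 0.49 (SE 0.19, adjusted p = 0.0348). The call for Tap1 did not survive the removal of proliferating library 1 or 3 or of osteoblast library 1, 2 or 3 (adjusted p up to 0.0989). Psmb8 was at -0.19 (adjusted p = 0.722). Of 8 tested IFIT, Mx and OAS genes 6 fell and none rose, while 2 of 3 tested antigen processing genes rose. Among other interferon-stimulated genes, 12 rose and 15 fell of 35, from Trim34a at 1.89 (SE 0.34, adjusted p = 0.000556) to Cxcl10, which had 0 counts in osteoblast cultures. The immune checkpoint ligand Cd274 rose by 3.04 (SE 0.42, adjusted p = 8.64e-05). The leukocyte markers listed came to 3.51 to 4.74 CPM here and to 10.1 to 12.9 CPM in proliferating cells, and their part in the falls was not tested.

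In smooth muscle cultures at 21% O2 the set was split. Of 34 members tested, 13 rose and 10 fell, or 67.6% called against 79.7% of all genes (40.8% higher, 38.9% lower), and the median was 0.053 against 0.028 over all genes. Of 9 tested IFIT, Mx and OAS genes 5 rose and 2 fell, with rises for Mx1 at 5.38 (SE 0.52, adjusted p = 1.1e-07), Ifit3b at 3.30 (SE 0.23, adjusted p = 2.19e-09), Ifit3 at 2.69 (SE 0.16, adjusted p = 3.04e-10) and Ifit1 at 1.95 (SE 0.14, adjusted p = 2.42e-09). Psmb8 rose by 1.77 (SE 0.31, adjusted p = 7.27e-05), B2m by 0.94 (SE 0.060, adjusted p = 6.52e-10) and Tap1 by 0.49 (SE 0.14, adjusted p = 0.00444), so that all 3 tested antigen processing genes were higher. Irf1 rose by 1.59 (SE 0.091, adjusted p = 1.93e-10) and Stat2 by 0.94 (SE 0.079, adjusted p = 2.04e-08), together with Dtx3l (0.88), Parp9 (0.78) and Parp14 (0.74). Both fallen members of that family were OAS genes, Oas3 at -4.84 (SE 0.70, adjusted p = 1.11e-05), Oas1a at -2.76 (SE 0.45, adjusted p = 3.5e-05), and the membrane effectors Ifitm3 (-1.98, SE 0.11, adjusted p = 1.01e-08) and Bst2 (-1.08, SE 0.22, adjusted p = 0.00231) were lower too. Helz2, a helicase of the interferon response, fell, at -1.42 (SE 0.15, adjusted p = 3e-07). Isg15 was at -0.20 (adjusted p = 0.448) and Irf7 at -0.57 (adjusted p = 0.191). Without the fourth proliferating library 15 rose and 17 fell of 37 tested. Isg15 and Irf7 were among those that fell, at -0.43 and -0.85 (adjusted p = 0.0246 and 0.00197). Mx1, which had 6 counts over the 4 proliferating libraries, ranged from 5.02 to 6.06 as single libraries were left out, and Oas3 from -5.66 to -4.46. Beyond the members, 14 of 17 further antigen processing genes rose and 1 fell, with Cd74, the MHC class II chaperone, at 6.51 (SE 0.43, adjusted p = 1.09e-09), while the 3 constitutive proteasome subunits fell. Of 36 further interferon-stimulated genes, 19 rose and 11 fell, from the GTPase Gbp2 at 4.18 (SE 0.20, adjusted p = 1.68e-11) to Ifi204 at -2.58 (SE 0.098, adjusted p = 1.39e-12). Leukocyte markers summed to 3.68 to 4.10 CPM in these cultures, below the 10.1 to 12.9 CPM of proliferating cells, and their part in these values was not tested.

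**Figure D3:**
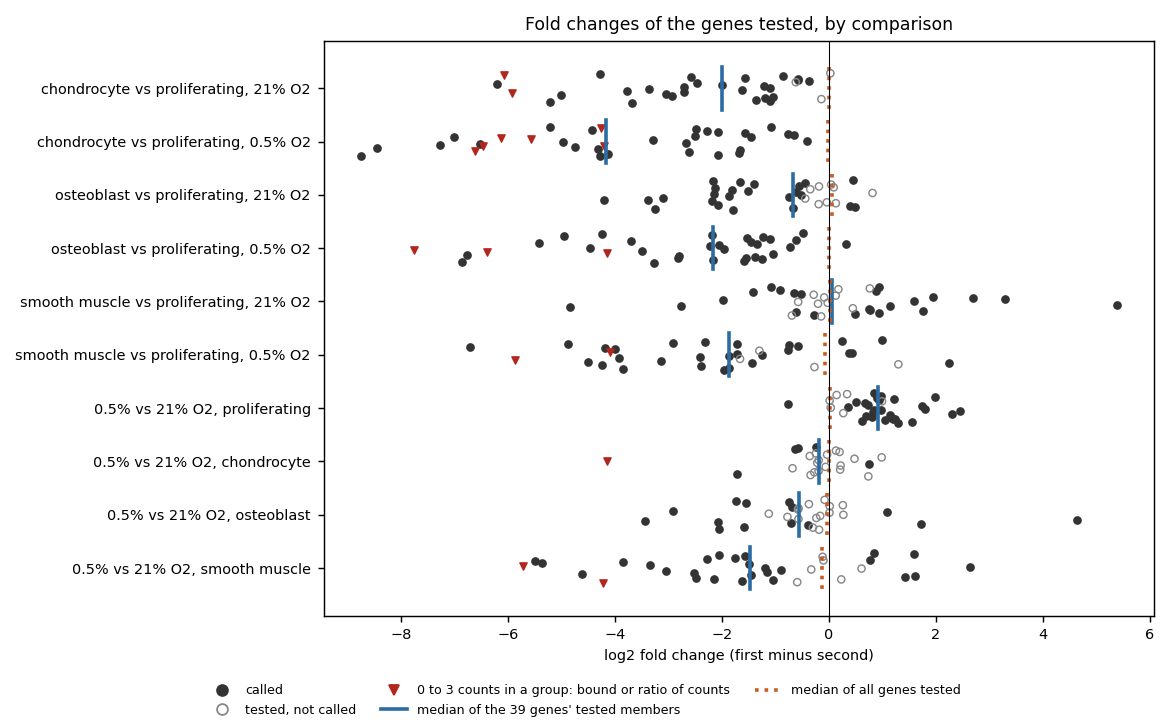
log2 fold changes (horizontal axis) of every member tested in each of 10 comparisons (vertical axis), called (filled) or not (open), with genes that had 0 to 3 counts in a group placed at their bound or ratio of counts (triangles), the median of the members (solid blue line) and of all genes tested (dotted orange line). The members' median is at -4.17 for chondrocyte cultures at 0.5% O2 with such genes at their bounds, and at 0.92 for low oxygen in proliferating cells.

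At 0.5% O2, every member tested was lower in chondrocyte cultures. All 34 fell against proliferating cells at 0.5% O2, where 69.5% of all genes were called (34.6% lower), and the groups did not overlap for any of the 34, as for 73.8% of all genes tested. The median was -4.20 (-4.17 with the genes at 0 counts placed at their bounds) against -0.021 over all genes. Members with few or no chondrocyte counts, among them Oas1a, Oas2, Ifit3b, Cmpk2, Psmb8 and Ifit3, entered the test only through the proliferating cells. For them a fall without overlap was the only call open. These counts and the median are thus in part fixed by which genes were tested. Where every library had to hold at least 10 counts, fewer members were tested and called, as given below. Usp18 fell, at -8.74 (SE 0.29, adjusted p = 1.79e-11) and the OAS-like gene Oasl2 at -8.45 (SE 0.30, adjusted p = 3.71e-11). Oas1a was at least 87.9-fold lower, Ifit3b at least 47.5-fold, Cmpk2 at least 19.1-fold and Oas2 at least 18.5-fold, each against 3 counts over the group. Psmb8, with 1 count left, was lower by 97.5-fold (95% counting interval 17.1 to 3890.0), and Ifit3, with 3 counts left, by 70.0-fold (95% counting interval 23.6 to 342). Ifit1 was at -7.00 (SE 0.46, adjusted p = 2.5e-08), Isg15 at -6.52 (SE 0.40, adjusted p = 7.23e-09) and Bst2 at -5.21 (SE 0.093, adjusted p = 1.01e-13). These rest on few chondrocyte counts: the fitted fold changes ran from -9.93 to -8.14 for Usp18, -9.61 to -7.87 for Oasl2, -10.82 to -6.42 for Ifit1 and -7.59 to -6.04 for Isg15 as single libraries were left out, the lowest without the third chondrocyte library for Usp18 and without the first for the other 3. The transcription factors fell too, Irf7 at -4.97 (SE 0.23, adjusted p = 1.95e-09) and Stat2 at -1.68 (SE 0.077, adjusted p = 4.47e-10). Among antigen processing genes Tap1 stood at -4.12 (SE 0.27, adjusted p = 2.27e-08) and B2m, the least affected of the 3, at -1.08 (SE 0.065, adjusted p = 6.55e-09). Ifitm3 was at -3.29 (adjusted p = 3.29e-12). By library size alone all 34 fell as well, and the share of higher calls over all genes moved from 50.2% to 31.8% (median shift -0.33). Further interferon-stimulated genes fell in 30 of 34 cases and rose in 1, and further antigen processing genes fell in 10 of 16 and rose in 4. Tmem173, the adaptor STING, fell, at -3.24 (SE 0.25, adjusted p = 7.9e-08), and Tlr3 rose by 2.26 (SE 0.21, adjusted p = 4.58e-07). Leukocyte markers summed to 3.70 to 4.91 CPM, with 6 of 10 at 0 counts, against 14.2 to 15.5 CPM in the proliferating cells. Their part in the falls was not tested.

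In osteoblast cultures at 0.5% O2, 32 of 33 tested members were lower and 1 higher than in proliferating cells, where 71.3% of all genes were called (35.1% lower), with a median of -2.16 against 0.0010. All 33 were without overlap between the groups, as were 74.8% of all genes tested. Members with few or no osteoblast counts, among them Oas1a, Oas2 and Isg15, entered the test only through the proliferating cells. For them a fall without overlap was the only call open. These counts and the median are thus in part fixed by which genes were tested. Isg15, with 3 counts left in the osteoblast libraries, was lower by 215-fold (95% counting interval 73.4 to 1050.0). Oas1a was at least 84.1-fold lower and Oas2 at least 17.7-fold. Usp18 fell, at -6.87 (SE 0.33, adjusted p = 1.77e-10) and Ifit1 at -5.41 (SE 0.35, adjusted p = 1.44e-09). Their fitted values ran from -8.48 to -6.27 and from -6.18 to -4.90 as single libraries were left out, the lowest without the second and the first osteoblast library. Irf7 was at -4.46 (SE 0.19, adjusted p = 8.75e-12) and Bst2 at -4.24 (SE 0.11, adjusted p = 2.27e-14). Ifitm3 (-2.22, SE 0.087, adjusted p = 4.15e-12), Tap1 (-2.16, SE 0.15, adjusted p = 5.19e-09) and Psmb8 (-2.81, SE 0.49, adjusted p = 0.000107) fell to a lesser degree. Stat2 was at -1.24 (adjusted p = 7.52e-09) and B2m at -0.48 (adjusted p = 3.04e-05). Ifit2 rose by 0.32 (SE 0.11, adjusted p = 0.015), a call lost without the second proliferating or the first osteoblast library (adjusted p up to 0.0782), and 0 members rose with library size alone. That scaling moved the share of higher calls over all genes from 50.8% to 38.2% (median shift -0.23). Of the other interferon-stimulated genes 27 of 34 fell and 2 rose. The factor Irf5 rose by 2.58 (SE 0.13, adjusted p = 9.96e-11) and Samhd1, a nucleotide hydrolase, by 2.03 (SE 0.073, adjusted p = 1.62e-12). The sum of leukocyte markers was 3.34 to 4.89 CPM in these osteoblast cultures against 14.2 to 15.5 CPM in proliferating cells, and their part in the falls was not tested.

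The smooth muscle cultures at 0.5% O2 gave lower transcripts for most effectors and higher ones for a few membrane and antigen processing genes, and of these rises that of Psmb8 held under both scalings. With TMM, 5 members rose and 25 fell of 34 against proliferating cells at 0.5% O2, where 70.0% of all genes were called (33.8% higher, 36.2% lower), and the median was -1.87 against -0.073. With library size alone 1 rose and 32 fell, the median was -3.15 against -1.35 over all genes, and the share of higher calls over all genes moved from 48.3% to 15.0%. Psmb8 was higher under both, at 2.25 (SE 0.35, adjusted p = 0.000136) and at 0.98 (adjusted p = 0.025) by library size. B2m (0.99, SE 0.077, adjusted p = 4.12e-07) turned to -0.28 by library size, Ifitm3 (0.37, SE 0.080, adjusted p = 0.00145) to -0.91, Bst2 (0.24, SE 0.086, adjusted p = 0.0261) to -1.04 and Irf1 (0.43, SE 0.16, adjusted p = 0.0328) to -0.85. The rises of Bst2 and Irf1 were also lost without any of the 3 proliferating libraries, and without the first smooth muscle library for Bst2 or the second for Irf1 (adjusted p up to 0.128 and 0.131). All 25 members that fell with TMM also fell by library size alone. Oas3 was at least 58.3-fold lower and Ifit3b at least 17.1-fold, both with 0 counts in the smooth muscle libraries, so that a fall was the only call open to them. Ifi44 fell, at -6.71 (SE 0.49, adjusted p = 2.61e-07) and Helz2 at -4.87 (SE 0.28, adjusted p = 3.74e-08), with -7.95 and -6.15 by library size. Ifi44 had counts in the third smooth muscle library only, and without it its fitted value was -11.57. Ifit1 was at -3.99 (SE 0.54, adjusted p = 4.37e-05), running from -4.83 to -3.32 as single libraries were left out, the lowest without the second smooth muscle library. Stat2 was at -2.39 (SE 0.12, adjusted p = 1.32e-08), Isg15 at -1.87 (SE 0.36, adjusted p = 0.000603) and Irf7 at -1.71 (SE 0.18, adjusted p = 4.64e-06). Tap1 was at -0.27 (adjusted p = 0.204), at -0.44 without the third smooth muscle library (adjusted p = 0.0385), and at -1.54, called lower, by library size. Leukocyte markers summed to 36.5 to 41.8 CPM in these libraries, mostly Cd68 (mean 34.0 CPM), with 6 of the 10 at 0 counts, among them Itgam and Cd3e. Their part in these values was not tested.

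Between oxygen levels, 28 of 34 members were called in smooth muscle cultures, a share near the 75.6% of all genes. With TMM, 6 were higher and 22 lower at 0.5% O2, where 75.6% of all genes were called (35.4% higher, 40.2% lower), and the median was -1.48 against -0.12. By library size alone 2 were higher and 30 lower, with medians of -2.84 and -1.49, and the share of higher calls over all genes moved from 46.8% to 15.6%. Ifitm3 was higher under both, at 2.64 (SE 0.13, adjusted p = 6.39e-11) and at 1.27 by library size. Bst2 was at 1.60 (SE 0.083, adjusted p = 1.45e-10) and at 0.23 (adjusted p = 0.0279). Psmb8 (1.61, SE 0.30, adjusted p = 0.000177) went to 0.24 (adjusted p = 0.464) and Psmb9 (1.42, SE 0.59, adjusted p = 0.0413) to 0.060 (adjusted p = 0.926). The call for Psmb9 was also lost without library 1, 2 or 3 at 21% O2 or library 2 or 3 at 0.5% O2 (adjusted p up to 0.118). B2m was at 0.84 (SE 0.077, adjusted p = 1.01e-07) with TMM and at -0.52 by library size. All 7 tested IFIT, Mx and OAS genes were lower at 0.5% O2. Ifit3b was at least 52.7-fold lower, Ifit1 fell, at -5.36 (SE 0.39, adjusted p = 7.58e-09) and Ifit3 at -3.34 (adjusted p = 1.13e-05). Ifit1 ran from -6.20 to -4.68 as single libraries were left out, the lowest without the second library at 0.5% O2. Ifi44 fell, at -5.50 (SE 0.57, adjusted p = 4.7e-07) (-10.59 without the third library at 0.5% O2, which held all its counts) and Parp14 at -4.62 (SE 0.30, adjusted p = 1.85e-09) (-5.31 without the same library). Stat2 was lower, at -2.14 (SE 0.12, adjusted p = 3.01e-10). Zbp1, with 1 count left, was lower by 18.6-fold (95% counting interval 3.25 to 745). Isg15 was at -0.89 (SE 0.36, adjusted p = 0.0369), a call lost without library 1, 3 or 4 at 21% O2 or library 3 at 0.5% O2 (adjusted p up to 0.119). Irf7 was at 0.61 (adjusted p = 0.0611) and Tap1 at 0.23 (adjusted p = 0.274). By library size both were called lower, at -0.75 (adjusted p = 0.0257) and -1.14 (adjusted p = 5.97e-05). With TMM, Irf7 was called without library 4 at 21% O2 (0.85, adjusted p = 0.0143) or library 2 at 0.5% O2 (0.77, adjusted p = 0.0232). All 22 members that fell with TMM also fell by library size. Of 36 further interferon-stimulated genes 24 fell and 8 rose with TMM and 30 fell and 5 rose by library size, the chemokine Ccl5 rising by 4.92 (SE 0.40, adjusted p = 3.24e-08) and 3.56 respectively. Of 17 further antigen processing genes 11 fell and 5 rose with TMM, and 14 fell by library size, where the highest value was that of H2-T23 at 0.14 (adjusted p = 0.179). Cd74 was at -3.74 (SE 0.46, adjusted p = 2.74e-06) with TMM and at -5.08 by library size. The sum of leukocyte markers ran from 3.68 to 4.10 CPM at 21% O2 and from 36.5 to 41.8 CPM at 0.5% O2 (19.5 to 22.1 CPM by library size), and their part was not tested.

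**Figure D4:**
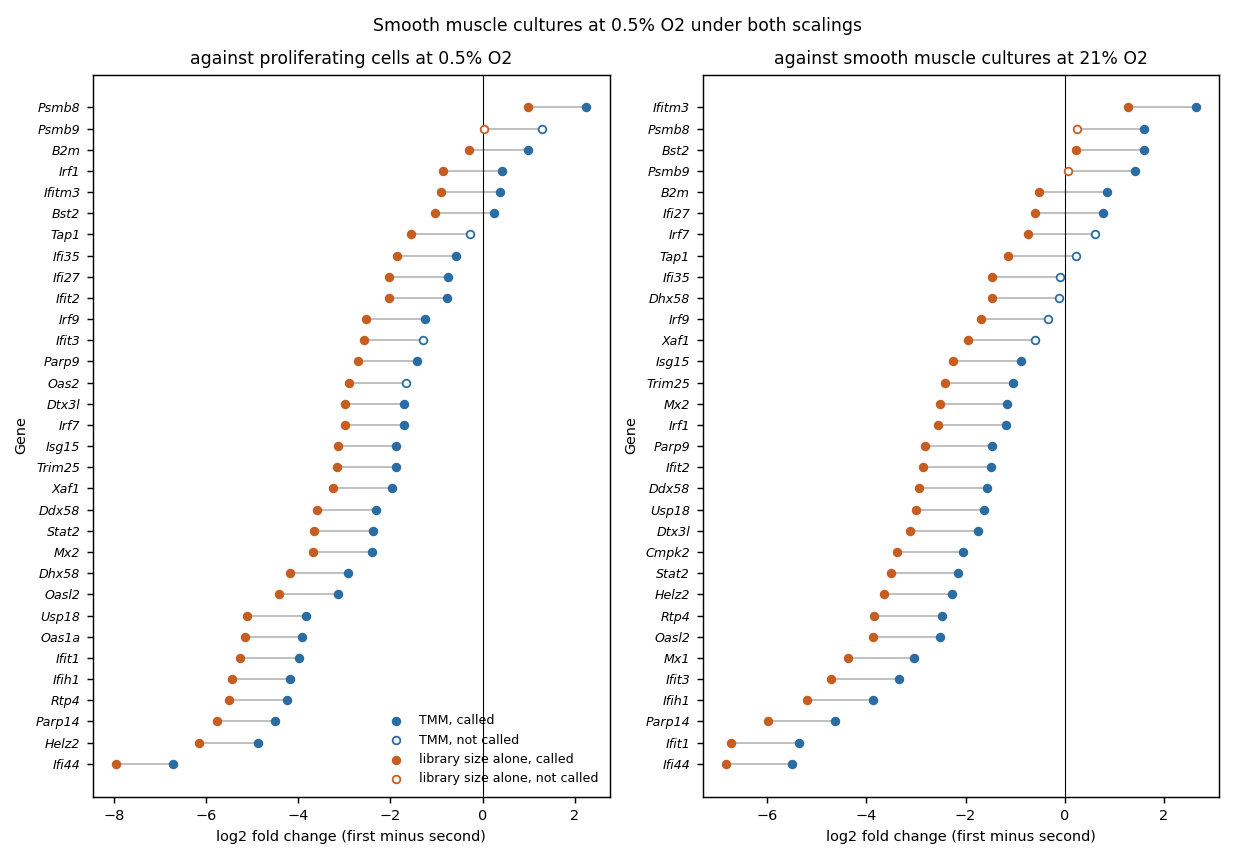
log2 fold changes (horizontal axes) of the members with fitted values (vertical axes) in smooth muscle cultures at 0.5% O2 against proliferating cells at 0.5% O2 (left) and smooth muscle cultures at 21% O2 (right), with TMM (blue) and library size alone (orange), filled where called. The change of scaling moves all genes the same way, and B2m crosses 0 in both panels while Psmb8 and Ifitm3 stay above 0 in the left and right panel respectively.

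Few members were called between the oxygen levels in chondrocyte cultures. Of 23 tested, 1 was higher and 5 lower at 0.5% O2, or 26.1% called, near the 22.2% of all genes (10.4% higher, 11.8% lower), and the median was -0.19 against -0.0058. The other 16 members, among them Isg15, Usp18, Ifit1, Mx1, Mx2, Psmb8 and all 5 OAS genes listed, had too few counts to be tested, with at most 34 counts over the 4 libraries at 21% O2 (Isg15). Irf1 rose by 0.74 (SE 0.17, adjusted p = 0.00896). Tap1 fell, at -1.71 (SE 0.42, adjusted p = 0.0127), Ddx58 at -0.63 (SE 0.14, adjusted p = 0.0081), Bst2 at -0.58 (SE 0.19, adjusted p = 0.0456) and B2m at -0.24 (SE 0.066, adjusted p = 0.0239). Ifit3, with 3 counts left, was lower by 17.8-fold (95% counting interval 5.85 to 88.5). Without the third library at 0.5% O2, 3 members were called, and the calls of Tap1 (adjusted p = 0.054), B2m and Bst2 were lost. The B2m call was lost too without library 2 or 3 at 21% O2 (adjusted p up to 0.129), and that of Bst2 without any library but the first at 21% O2 (adjusted p up to 0.155). Stat2 was at -0.27 (adjusted p = 0.0525), Ifitm3 at -0.22 (adjusted p = 0.321) and Irf7 at 0.22 (adjusted p = 0.791). Stat2 was called without library 1 or 4 at 21% O2 (-0.31 and -0.29, adjusted p = 0.0385 and 0.0484). Scaled by library size, 1 rose and 7 fell, and the share of higher calls over all genes moved from 46.9% to 31.8%. Psmb8 had 11 counts at 21% O2 and 1 at 0.5% O2. In the wider pathway H2-K1 rose by 1.17 (SE 0.15, adjusted p = 0.000319) and Cd274 fell, at -1.80 (SE 0.49, adjusted p = 0.0217).

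In osteoblast cultures 3 members were higher and 11 lower at 0.5% O2 of 29 tested, or 48.3% called against 54.3% of all genes (27.0% higher, 27.3% lower), with a median of -0.57 against -0.032. Oas3 stood out on the higher side, at 1.87, 3.14 and 3.10 CPM against 0.0707, 0.0399, 0.206 and 0.0975 CPM at 21% O2, a log2 fold change of 4.63 (SE 0.45, adjusted p = 3.48e-05). Rtp4, a receptor chaperone induced by interferon, rose by 1.72 (SE 0.21, adjusted p = 0.000147) and Ifit2 by 1.08 (SE 0.21, adjusted p = 0.00221). On the lower side were Oasl2 at -3.44 (SE 0.51, adjusted p = 0.000478), Ifit1 at -2.92 (SE 0.56, adjusted p = 0.00205), Parp14 at -2.06 (SE 0.32, adjusted p = 0.000574) and Bst2 at -1.74 (SE 0.25, adjusted p = 0.000495). Ifit1 ran from -3.69 to -2.41 as single libraries were left out, the lowest without the first library at 0.5% O2. Usp18 fell, at -2.06 (SE 0.76, adjusted p = 0.0452), a call lost without any of the first 3 libraries at 21% O2 or library 1 or 3 at 0.5% O2 (adjusted p up to 0.137), and its value was -3.65 without the second at 0.5% O2. Tap1 fell, at -1.59 (SE 0.20, adjusted p = 0.000175) and Stat2 at -0.40 (SE 0.10, adjusted p = 0.00852). Isg15 was not tested for low counts, with 3 counts at 0.5% O2 and a ratio of 13.8-fold (95% counting interval 4.49 to 69.0). B2m was at -0.079 (adjusted p = 0.67), Irf7 at -0.77 (adjusted p = 0.0805) and Ifitm3 at 0.27 (adjusted p = 0.0619). Psmb8 ranged from 0.227 to 0.848 CPM at 21% O2 and from 0.0778 to 0.242 CPM at 0.5% O2. Irf7 was called without library 2 at 0.5% O2 (-1.10, adjusted p = 0.042) and Ifitm3 without library 1 at 0.5% O2 (0.36, adjusted p = 0.0273). Without the fourth osteoblast library at 21% O2, whose lineage markers stand apart, 4 members rose and 20 fell, among them Irf7 at -0.91 and B2m at -0.20 (adjusted p = 0.0227 and 0.0203). Scaling by library size gave 3 rises and 14 falls, and the share of higher calls over all genes moved from 49.6% to 36.9% (median shift -0.16). The exonuclease Isg20 rose by 2.92 (SE 0.13, adjusted p = 4.11e-07), and Irf5 rose by 2.54 (SE 0.31, adjusted p = 0.000166).

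The difference between the oxygen levels in each lineage change was tested as an interaction, in which a negative value means that the step from proliferating to differentiated culture was more negative at 0.5% O2. Each value also equals the oxygen difference in the differentiated cultures less that in proliferating cells. The rises in proliferating cells at 0.5% O2 therefore enter it with a negative sign. These tests and the comparisons above share the proliferating libraries. In the chondrocyte interaction 20 members were lower and 2 higher of 34, against 43.5% of all genes called (21.6% higher, 21.9% lower), with a median of -1.21 against -0.032. Mx2 was at -4.52 (SE 0.84, adjusted p = 0.000268), Tap1 at -2.74 (SE 0.39, adjusted p = 2e-05), Psmb8 at -3.93 (SE 1.13, adjusted p = 0.00872) and Stat2 at -1.50 (SE 0.13, adjusted p = 9.04e-08). The first and second chondrocyte libraries at 0.5% O2 set much of the value of the genes with few counts: without the second Mx2 was at -5.84, and without the first Psmb8 was at -5.94 and Isg15 (-2.73, SE 0.81, adjusted p = 0.0113) at -3.81. Ifit3 (-4.75) and Ifit3b (-5.85) were lower too (adjusted p = 5.09e-06 and 0.00797), values that depend on the fit's prior where counts are 0 to 3. B2m was at -1.07 (adjusted p = 7.06e-08) and Ifitm3 at -0.56 (adjusted p = 0.0108). Irf1 (0.72, SE 0.20, adjusted p = 0.0067) and Ifit2 (0.58, SE 0.14, adjusted p = 0.00212) were the members with the opposite sign. Irf7 was at -1.57 (adjusted p = 0.0663), Bst2 at -0.90 (adjusted p = 0.0571) and Ifit1 at -0.78 (adjusted p = 0.653). Irf7 and Bst2 were called without the fourth proliferating library at 21% O2 (-1.31 and -0.71, adjusted p = 0.0111 and 0.00163), Irf7 also without the first chondrocyte library (-1.84, adjusted p = 0.0374) and Bst2 without the second proliferating library (-1.01, adjusted p = 0.0369) at 21% O2.

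In the osteoblast interaction 26 members were lower and 2 higher of 35, against 54.2% of all genes called (28.9% higher, 25.3% lower), with a median of -1.60 against 0.0023, the latter with a shift of -0.12 when scaled by library size. Without the fourth osteoblast library at 21% O2, 27 were lower and 2 higher. Isg15 was at -4.47 (SE 0.87, adjusted p = 0.000428), Ifit1 at -3.56 (SE 0.49, adjusted p = 1.76e-05), Irf7 at -2.54 (SE 0.52, adjusted p = 0.00089) and Bst2 at -2.04 (SE 0.38, adjusted p = 0.000644). All 4 antigen processing genes were lower, with Tap1 at -2.60 (SE 0.25, adjusted p = 3.41e-07), Psmb8 at -2.59 (SE 0.73, adjusted p = 0.00699), B2m at -0.89 (SE 0.16, adjusted p = 0.000259) and Psmb9 at -5.10 (adjusted p = 0.00105). Cmpk2 (-5.75, adjusted p = 0.00461) and Oas1a (-5.40, adjusted p = 0.00787) had 0 counts in osteoblast cultures at 0.5% O2, so these fitted values are no bounds. Left-out libraries moved Isg15 over -5.32 to -3.89, Ifit1 over -4.32 to -3.04, Cmpk2 over -6.07 to -5.12 and Psmb9 over -6.61 to -4.58, with the osteoblast libraries at 0.5% O2 giving the lowest values for Isg15 (library 3), Ifit1 (library 1) and Psmb9 (library 2), and library 1 at 21% O2 the highest for Cmpk2. Stat2 was at -1.60 (adjusted p = 1.87e-07) and Ifitm3 at -0.039 (adjusted p = 0.821). Oas3 (2.37, SE 0.67, adjusted p = 0.00725) and Ifit2 (1.88, SE 0.24, adjusted p = 9.9e-06) were higher.

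In the smooth muscle interaction 27 members were lower and 2 higher of 37 with TMM, against 70.4% of all genes called (34.9% higher, 35.5% lower), with a median of -2.17 against -0.042. Scaled by library size, 33 were lower and 1 higher, the medians were -3.46 and -1.37, and the share of higher calls over all genes moved from 49.6% to 16.6%. Ifitm3 was higher at 2.33 (SE 0.15, adjusted p = 1.76e-11) and Bst2 at 1.30 (SE 0.26, adjusted p = 0.000529). By library size Ifitm3 was at 0.99, still called, and Bst2 was at -0.039. Ifit1 was at -6.00 (SE 0.43, adjusted p = 3.5e-11), Stat2 at -3.35 (SE 0.15, adjusted p = 8.01e-15), Isg15 at -1.70 (SE 0.44, adjusted p = 0.00171) and Tap1 at -0.78 (SE 0.23, adjusted p = 0.00475). Ifit1 ranged over -6.82 to -5.30 and Ifi44 (-6.47, SE 1.03, adjusted p = 7.72e-05) over -11.85 to -5.78 as single libraries were left out, the lowest without the second and the third smooth muscle library at 0.5% O2. Ifit3b (-11.95, adjusted p = 1.29e-09) had 0 counts in the smooth muscle libraries at 0.5% O2, so its fitted value is no bound. The call for Irf7 (-1.16, SE 0.49, adjusted p = 0.0473) did not survive the removal of proliferating library 1, of smooth muscle library 3 or 4 at 21% O2, or of any of the 6 libraries at 0.5% O2 (adjusted p up to 0.136). B2m was at 0.033 (adjusted p = 0.776) and Psmb8 at 0.46 (adjusted p = 0.402). By library size B2m was called lower, at -1.30, and Psmb8 was at -0.87.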

How the data were processed

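Polyadenylated RNA of 28 libraries was analysed from raw counts per gene that the authors deposited. HISAT2 2.0.5, StringTie 1.3.3b, featureCounts 1.5.0-p3 and the build mm10 are named in the submitters' processing notes, and the annotation and strand setting are not given in the sources used here. The authors also deposited tables of 10 comparisons with log2 fold changes and p-values, which were set beside the values computed here. The 70 columns of normalised library values in those tables were not used.

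Counts were tested with edgeR 4.0.16 (R 4.3.3) by a robust quasi-likelihood fit of the libraries of each comparison, with TMM scaling, filterByExpr (minimum count 10, minimum total 15) and Benjamini-Hochberg adjustment over all genes tested. Where a member had few counts in a group, it passed the filter through another, and only a lower level in the former could be called. Interactions used the 4 groups concerned. Levels are CPM after TMM over all 28 libraries. The tests were checked on simulated counts with known changes. Alternatives were library size alone, no mitochondrially encoded genes, DESeq2 1.42.0, limma-voom (limma 3.58.1), no filter, at least 10 counts in every library, all libraries in 1 fit, a replicate block and leaving out each library. Correlations of same-numbered libraries ran from -0.08 to 0.118, and in 0 of 10 comparisons were all above 0.1, so the numbers were not taken as pairs.

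The members and the lists of other genes were chosen with earlier results of these data known. All 39 members are given by level or count. Members named in a comparison are the called ones with the 4 largest rises and falls (3 in an interaction) among those with a mean of at least 10 counts in a group, with Isg15, Ifit1, Irf7, Stat2, Bst2, Ifitm3, B2m, Psmb8 and Tap1 throughout. For each of the other lists, 1 called gene per direction, the one changed most, could be named. Intervals of count ratios and limits from 3 counts cover counting error only. Genes named beyond this rule were chosen after their values were seen: Irf1, Dtx3l, Parp9 and Parp14 in smooth muscle cultures at 21% O2, Ifi44 in chondrocyte cultures at 21% O2, Cmpk2, Oas2 and Ifit3 in those at 0.5% O2, Zbp1 and Ifit3 between oxygen levels in smooth muscle cultures, and those of the closing observations. Of the genes counted in the other lists, 1 is not reported here.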

Additional observations from a re-analysis of the deposited data

Results flagged for a closer look

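Among 105 sets of 4 libraries at 21% O2 (1 member in 1 group, with a mean of at least 1 CPM), 18 held a library that stood apart from the other 3, where chance gives about 1 in 20. The fourth proliferating library accounted for 8 of them and the fourth osteoblast library for 7. The fourth proliferating library read 19.3 CPM for Irf9, 2.30 for Usp18, 38.1 for Trim25, 13.7 for Parp9, 7.82 for Parp14, 4.15 for Oasl2, 11.1 for Ifi35 and 2.19 for Ifi44, each below the other proliferating libraries. The fourth osteoblast library read 20.6 CPM for Ddx58, 6.20 for Irf1, 16.2 for Irf9, 7.08 for Dtx3l, 15.2 for Bst2, 0.682 for Xaf1 and 223 for B2m. Single values apart were 39.6 CPM for Irf1 in the fourth smooth muscle library, 1.53 for Parp14 in the second chondrocyte library and 7.97 for Helz2 in the fourth chondrocyte library.

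Lineage changes differed between the oxygen levels by the interaction test for 33 named values (edgeR, adjusted over all genes), and negative values mean a more negative change at 0.5% O2. In chondrocyte cultures they were 0.72 for Irf1, 0.58 for Ifit2, -5.85 for Ifit3b, -4.75 for Ifit3, -4.52 for Mx2, -2.73 for Isg15, -1.50 for Stat2, -0.56 for Ifitm3, -1.07 for B2m, -3.93 for Psmb8 and -2.74 for Tap1. In osteoblast cultures the differences were 2.37 for Oas3, 1.88 for Ifit2, -5.75 for Cmpk2, -5.40 for Oas1a, -5.10 for Psmb9, -4.47 for Isg15, -3.56 for Ifit1, -2.54 for Irf7, -1.60 for Stat2, -2.04 for Bst2, -0.89 for B2m, -2.59 for Psmb8 and -2.60 for Tap1. In smooth muscle cultures they were 2.33 for Ifitm3, 1.30 for Bst2, -11.95 for Ifit3b, -6.47 for Ifi44, -6.00 for Ifit1, -1.70 for Isg15, -1.16 for Irf7, -3.35 for Stat2 and -0.78 for Tap1. The smooth muscle libraries at 0.5% O2 also differ from all others in mitochondrial ribosomal RNA and TMM factor, and the part of that in these values was not tested.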

How the results depend on the processing

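Of 2676 values of 165 member results under an alternative, 2536 kept their direction and their side of the threshold, 77 lost their call, 38 gained one and 25 changed sign. Of 216 counts of members called, 209 stayed within 1.5 times. Where every library had to hold at least 10 counts, fewer genes were tested, and the counts were 20 for chondrocyte against proliferating cultures at 0.5% O2, 17 for smooth muscle against proliferating cultures at 0.5% O2, 14 for smooth muscle cultures between oxygen levels and 14 for their interaction. Between oxygen levels, leaving out single libraries gave 3 to 8 in chondrocyte cultures (3 without the third library at 0.5% O2) and 12 to 24 in osteoblast cultures (24 without the fourth library at 21% O2). The cause of these 2 spreads was not tested.

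With the replicate number as a block, 24 members instead of 14 were called between oxygen levels in osteoblast cultures. The other counts stayed within 1.5 times, and Ifit1 in the chondrocyte interaction turned to 1.45. The labels give the replicate numbers no shared source. The fourth libraries at normoxia have no match of that number at low oxygen. Leaving out the fourth osteoblast library at normoxia, with no block, also gave 24 calls. Leaving out the fourth chondrocyte library at normoxia, with no block, turned Ifit1 in that interaction to 1.31. The block was not tested apart from the fourth libraries.

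By library size alone, B2m turned to -0.32 in chondrocyte cultures at 21% O2. In smooth muscle cultures at 0.5% O2 against proliferating cells, B2m turned to -0.28, Irf1 to -0.85, Ifitm3 to -0.91 and Bst2 to -1.04. Against smooth muscle cultures at 21% O2, Irf7 turned to -0.75, B2m to -0.52 and Tap1 to -1.14, and in the smooth muscle interaction Bst2 to -0.039, B2m to -1.30 and Psmb8 to -0.87. B2m in chondrocyte cultures at 21% O2 was -0.0015 with no filter, -0.046 with all libraries in 1 fit and -0.019 to 0.060 with single libraries left out. B2m in the smooth muscle interaction was -0.041, -0.013 and -0.028 to 0.091 in the same fits. Single libraries left out also moved Psmb8 in osteoblast cultures at 21% O2 over -0.76 to 0.047, Irf7 between oxygen levels in chondrocyte cultures over -0.15 to 0.56, Ifit1 in the chondrocyte interaction over -4.79 to 1.31 and Ifitm3 in the osteoblast interaction over -0.10 to 0.057. These 6 values were not called in the reported fits with TMM. Of all called member values in the 10 comparisons and 3 interactions, 28 calls were lost in at least 1 fit that left out a library and 0 turned sign. In the authors' deposited tables all 248 called member values had the same sign, with a median difference of 0.035 and a largest one of 1.21 (log2). Members with few counts are limited by depth, and their fold changes rest on bounds or wide counting intervals.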

Other observations

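A pair of genes outside the member list, chosen after their values were seen, were higher at 0.5% O2 in all 4 culture types with TMM scaling. Isg20, an RNA exonuclease, rose by 2.86 (SE 0.073, adjusted p = 1.09e-12) in proliferating cells, 0.69 (SE 0.13, adjusted p = 0.00295) in chondrocyte, 2.92 (SE 0.13, adjusted p = 4.11e-07) in osteoblast and 4.73 (SE 0.16, adjusted p = 1.41e-12) in smooth muscle cultures (edgeR). Its group means were 8.77, 19.7, 7.50 and 6.34 CPM at 21% O2 and 64.1, 32.1, 56.5 and 152 CPM at 0.5% O2, in that order of cultures. H2-K1, an MHC class I heavy chain, rose by 2.47 (SE 0.057, adjusted p = 4.83e-13), 1.17 (SE 0.15, adjusted p = 0.000319), 0.66 (SE 0.17, adjusted p = 0.00908) and 1.39 (SE 0.10, adjusted p = 1.08e-08) in the same cultures. Its light chain B2m was at 0.85 (SE 0.055, adjusted p = 1.2e-08), -0.24 (SE 0.066, adjusted p = 0.0239), -0.079 (SE 0.15, adjusted p = 0.67) and 0.84 (SE 0.077, adjusted p = 1.01e-07) in that order, and the call in chondrocyte cultures was lost without any 1 of 3 libraries. By library size alone, the smooth muscle value was 3.36 for Isg20, 0.017, no longer called, for H2-K1 and -0.52, called lower, for B2m. The 8 hypoxia response genes listed summed to 2546 to 4244 CPM in the libraries at 0.5% O2 and to 240 to 1241 CPM at 21% O2.

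The Ifitm genes related to Ifitm3 did not all move one way in osteoblast cultures at 21% O2, again an observation made after seeing the values. Against proliferating cells Ifitm2 was higher, at 0.86 (SE 0.12, adjusted p = 0.000107), while Ifitm1 was lower, at -3.05 (SE 0.20, adjusted p = 4.6e-07), as was Ifitm3. In smooth muscle cultures at 0.5% O2 against those at 21% O2, Ifitm1 was at 4.11 (SE 0.22, adjusted p = 5.12e-09) and Ifitm2 at 1.72 (SE 0.097, adjusted p = 4.21e-10), and by library size alone they were at 2.74 and 0.34.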
